A study of Homo sapiens with 2 samples.

Results

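The genes described here are 43 genes of DNA replication: those that license origins, unwind and copy DNA at the fork, supply nucleotides, and control the entry into S phase. They were taken by name, all probe sets whose single annotated gene was on the list, and all 43 were found among 18392 measured genes. The study concerns castration-resistant prostate cancer and set PC3 cells given 10 µM fluphenazine, an antipsychotic drug of the phenothiazine class, against PC3 cells given the solvent DMSO as control. PC3 is 1 human cell line, derived from a prostate cancer metastasis in bone. Both cultures were kept in RPMI-1640 medium with 10% fetal bovine serum, and no treatment time is stated in the labels. Each treatment had 1 array, so no value below has an error between cultures, no test was possible, and the treatment and the array cannot be told apart.

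Before a cell copies its genome, the origin recognition complex (ORC) with CDC6 and CDT1 loads rings of the MCM2 to MCM7 helicase onto DNA, a step called licensing. At the start of S phase CDC45 and the GINS complex turn the ring into an active helicase, and DNA polymerases, primase, the sliding clamp and its loader follow at the fork. E2F transcription factors, released from the retinoblastoma protein by cyclin-dependent kinases, drive many of these genes late in G1, and proliferating tumour lines express them strongly.

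Most of the replication genes had slightly lower signals with fluphenazine, and the MCM ring had the lowest median among the role groups. Genes were kept if their brighter array reached a log2 signal of 6.19, the midpoint of the genes ranked by their brighter array, and this floor left 9196 genes in all and 40 of the 43 members. Of these 40, 35 were lower on the fluphenazine array, or 87.5%, beside 51.8% of all genes above the floor. Their median difference, fluphenazine minus DMSO on the log2 scale, was -0.14, beside -0.01 for all genes. At least 1.2-fold lower were 6 of the 40 members, beside 4.69% of all genes: MCM2, MCM3, MCM5, MCM7, POLA2 and E2F1. No member was 1.2-fold higher, where 4.84% of all genes were, and none reached 1.5-fold in either direction, which 0.294% of genes did downward and 0.283% upward. The share of members at least 1.2-fold lower was above the background and the sizes were small. The 1.2-fold threshold was chosen with earlier results of these data known, so this share is a description. Between probe sets annotated to the same gene, these differences varied with a pooled SD of 0.13 over 3668 genes. For the 15 members with more than 1 probe set above the floor the pooled SD was 0.15, larger than the size of the members' median. Neither figure holds variation between cultures. Less RNA per cell and fewer cells in S phase cannot be told apart in a bulk sample.

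**Figure D1:**
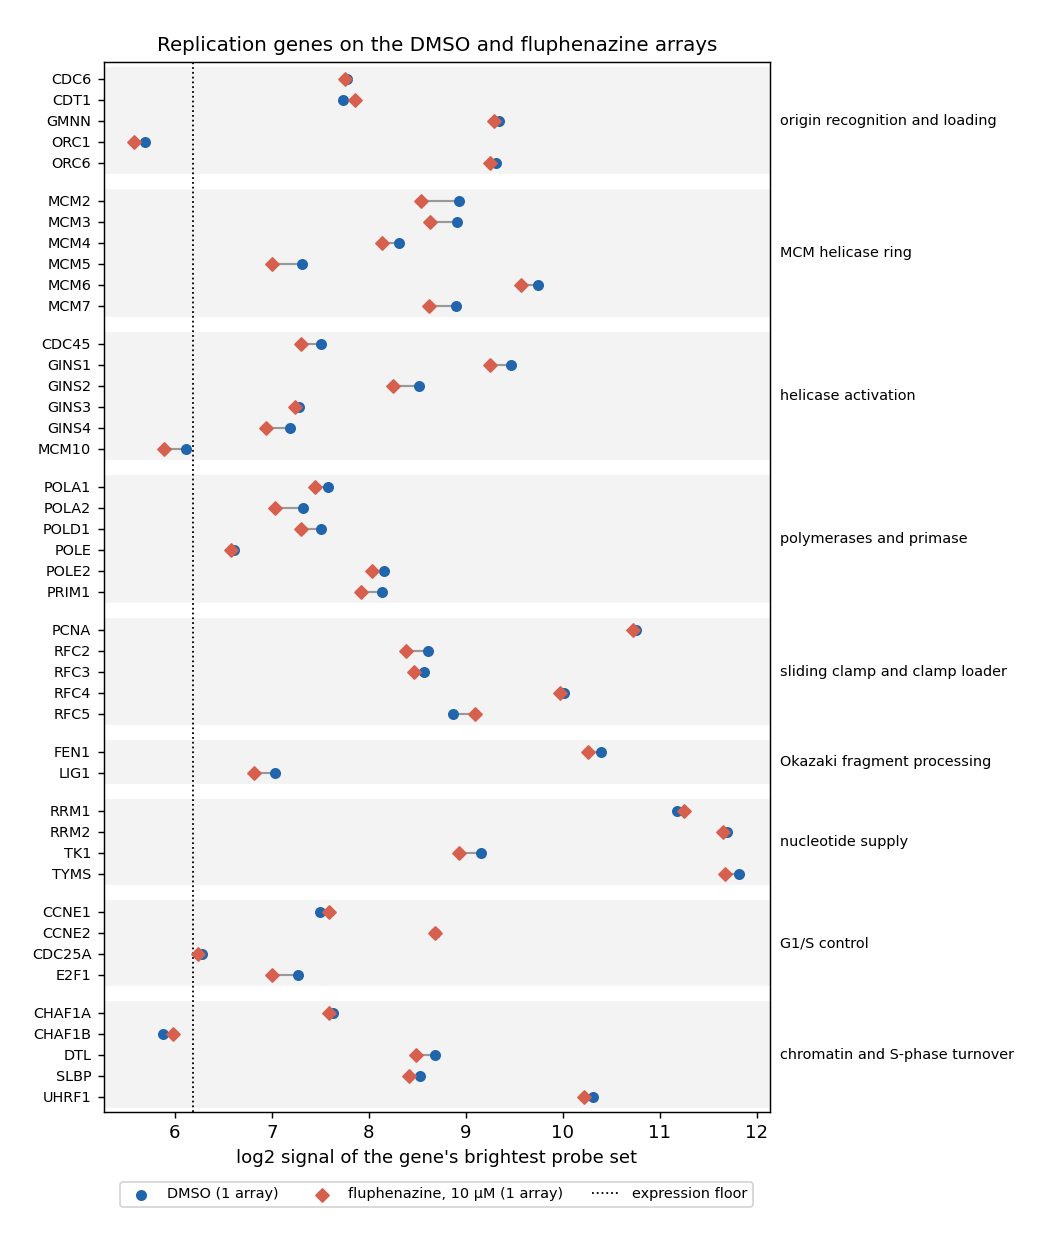
Log2 signal of the brightest probe set of each of the 43 genes on the DMSO array (blue circles) and the fluphenazine array (red diamonds), by role, with the floor of 6.19 as a dotted line. The fluphenazine mark lies to the left of the DMSO mark in 35 of the 40 genes above the floor, and all 6 MCM ring genes show this order.

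All 6 epithelial markers were above the floor on both arrays, and KRT8 had the largest difference among them, at 9.70 with DMSO and 9.28 with fluphenazine (-0.42). Their summed level was 14.73 with DMSO and 14.71 with fluphenazine on the log2 scale. Of the 4 androgen axis markers measured, 2 lay under the floor and 2 above it, with KLK3 at 6.93 with DMSO and 6.90 with fluphenazine. Of 10 markers of blood, endothelial and fibroblast cells 8 lay under it, and the exceptions were COL1A1, at 8.33 on both arrays, and PECAM1, at 8.76 with DMSO and 8.49 with fluphenazine. The log2 of the summed level of these 10 was 9.79 with DMSO and 9.67 with fluphenazine. All 24 probe sets of the poly-A spike-ins, bacterial transcripts added to the RNA, were lower on the fluphenazine array, with a median of -0.22, while the hybridization controls were lower at 14 of 18, with a median of -0.07. The remaining 17 control probe sets, most of them for human transcripts, were lower at 13, with a median of -0.11. The part of these controls in the differences of the replication genes was not tested.

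The MCM ring is the core of the replicative helicase, and all of its 6 subunits were lower with fluphenazine. The log2 signal of MCM2 was 8.93 with DMSO and 8.54 with fluphenazine, a difference of -0.39 or 1.31-fold, and 1.26% of all genes above the floor had a lower difference. MCM5 was at 7.315 and 6.998 (-0.32, 1.25-fold), and a second, dimmer probe set under the floor gave -0.34. MCM7 was at 8.90 and 8.62 (-0.28), and its other probe set, also above the floor, gave -0.20. These 3 genes had the lowest differences in the ring. MCM3 was at 8.90 with DMSO and 8.63 with fluphenazine (-0.27). MCM6 was at 9.74 and 9.57 (-0.17). MCM4 was at 8.31 and 8.13 (-0.18), and its other probe sets above the floor gave -0.31 and -0.16. Its probe sets under the floor gave -0.15 and 0.38. The ring's median was -0.27, and all 9 of its probe sets above the floor were lower. The proteins of the ring act as 1 hexamer, and their 6 differences spanned -0.39 to -0.17.

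E2F factors bind promoters of many replication genes, and sequences from RefSeq on GRCh38.p14 are shown for 5 members with lower signals, picked for display, whose promoters hold a letter match to the E2F-type motif TTTNNCGC, and for CCNE1, a member with no match. The signs of these 6 do not stand for all members, as the counts after the sequences show. Each is a stretch of 250 bases before an annotated start, 5′ to 3′ on the gene's strand. MCM7 had 3 such windows, and the window shown was picked for its number of matches. Capitals mark matches to TTTNNCGC on either strand, and overlapping matches run together.
MCM3 (chr6:52284743-52284992, minus strand): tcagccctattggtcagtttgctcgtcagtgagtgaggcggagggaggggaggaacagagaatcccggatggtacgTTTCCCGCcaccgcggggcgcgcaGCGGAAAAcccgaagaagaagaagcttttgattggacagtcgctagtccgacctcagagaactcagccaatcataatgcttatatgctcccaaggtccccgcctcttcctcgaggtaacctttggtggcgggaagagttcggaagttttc
MCM6 (chr2:135876444-135876693, minus strand): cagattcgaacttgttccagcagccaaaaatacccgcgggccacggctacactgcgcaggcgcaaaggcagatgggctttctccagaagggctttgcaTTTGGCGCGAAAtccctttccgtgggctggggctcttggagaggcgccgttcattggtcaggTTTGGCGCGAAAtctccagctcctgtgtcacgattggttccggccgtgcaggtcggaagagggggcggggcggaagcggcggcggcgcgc
MCM7 (chr7:100101398-100101647, minus strand): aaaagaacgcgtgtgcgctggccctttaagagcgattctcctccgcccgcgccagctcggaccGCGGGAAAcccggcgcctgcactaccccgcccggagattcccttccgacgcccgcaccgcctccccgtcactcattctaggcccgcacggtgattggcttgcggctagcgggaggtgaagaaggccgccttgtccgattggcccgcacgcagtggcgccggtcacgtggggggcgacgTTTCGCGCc
POLA2 (chr11:65261712-65261961, plus strand): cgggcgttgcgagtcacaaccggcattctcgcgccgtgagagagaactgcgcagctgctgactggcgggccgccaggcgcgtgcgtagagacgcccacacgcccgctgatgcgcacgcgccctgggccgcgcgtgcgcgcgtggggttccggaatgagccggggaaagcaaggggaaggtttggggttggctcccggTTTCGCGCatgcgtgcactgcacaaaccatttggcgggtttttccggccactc
E2F1 (chr20:33686386-33686635, minus strand): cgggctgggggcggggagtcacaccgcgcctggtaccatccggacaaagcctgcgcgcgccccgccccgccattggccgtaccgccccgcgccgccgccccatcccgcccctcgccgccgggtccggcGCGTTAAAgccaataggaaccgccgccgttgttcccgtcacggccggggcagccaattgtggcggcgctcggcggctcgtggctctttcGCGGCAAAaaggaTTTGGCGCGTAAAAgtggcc
CCNE1 (chr19:29811741-29811990, plus strand): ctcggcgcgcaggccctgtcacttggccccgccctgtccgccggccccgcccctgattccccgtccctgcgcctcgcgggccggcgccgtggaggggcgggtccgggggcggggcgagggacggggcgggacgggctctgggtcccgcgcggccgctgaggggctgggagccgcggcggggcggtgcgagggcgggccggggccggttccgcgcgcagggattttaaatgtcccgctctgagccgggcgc

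In MCM6 the capitals form 2 runs of TTTGGCGCGAAA, in which a match on each strand overlaps, starting 152 and 90 bases before the start. POLA2 has 1 match, 53 bases before the start, and E2F1 has 4, of which the nearest begins 14 bases before its own start. The table held 39 of the 43 genes, and MCM4, MCM5, GINS4 and CCNE2 were not in it. Of the 39, 19 genes (48.7%) had at least 1 match in 1 of their windows, beside 7.15% of 27305 genes with a window. The members' windows were richer in bases G and C, with a median of 68.2% beside 58.0%. Among the 6876 windows with at least as many CG pairs as the members' median 8.61% held a match, beside 5.92% of all windows. These 2 shares count windows and not genes, and the members' share among such CG-rich windows was not computed. The CCAAT box, searched as CCAAT on both strands, was found for 24 of 39 members (61.5%) and for 37.0% of all genes. Counted by window, it was found in 32.0% of all windows and in 23.6% of the CG-rich windows. The median difference was -0.14 over the 19 genes above the floor with a match and -0.11 over the 17 without. With a match 18 of the 19 were lower, the exception being CDT1, which has 2 matches and was at 0.12. Without a match 14 of the 17 were lower, and of all genes above the floor 51.8% were lower. A match is a description of letters and was not tested as a binding site. MCM2, with the lowest difference, had no match in this window.

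Genes that turn the loaded ring into a working helicase lay below 0 in each of 5 members over the floor (median -0.21). CDC45, which binds the ring's side, was at 7.51 with DMSO and 7.30 with fluphenazine (-0.21). The GINS complex has 4 subunits, and 3 of them lay close together. GINS1 was at 9.46 and 9.25 (-0.21), GINS2 at 8.51 and 8.25 (-0.26), and GINS4 at 7.18 and 6.94 (-0.24). GINS2 lay just outside the 1.2-fold threshold, which is 0.263 on the log2 scale. GINS3 was nearly level at 7.28 and 7.24 (-0.04), with -0.13 at its other probe set. MCM10, a scaffold of the fork that is not part of the ring, lay under the floor at 6.12 and 5.89, and its 3 probe sets gave -0.23, -0.20 and -0.11.

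Factors that recognize origins and load the ring were near 0. Whether they differ from the ring they load was not tested. Of 4 above the floor, 3 were lower, and their median was -0.03. CDC6, the loading ATPase, was at 7.77 with DMSO and 7.75 with fluphenazine (-0.02), with 0.00 at its other probe set. GMNN (geminin), which holds CDT1 inactive after origins have fired, was at 9.34 and 9.29 (-0.05), and the ORC subunit gene ORC6 at 9.31 and 9.24 (-0.07). ORC1, the subunit that comes and goes with the cell cycle, was under the floor at 5.70 and 5.58 (-0.12). CDT1, the licensing factor that brings the ring to ORC, was read differently by its probe sets. The brighter was at 7.73 and 7.85 (0.12), and the dimmer, under the floor, at 5.68 and 5.19 (-0.49). No direction is given for CDT1, and the brighter probe set carries the maker's mark for possible cross-hybridization.

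Polymerase and primase genes were lower in all 6 members, with a median of -0.17. POLA2, the regulatory subunit of the polymerase that starts each new strand, was the lowest at 7.32 with DMSO and 7.04 with fluphenazine (-0.29, 1.22-fold). Its catalytic partner POLA1 was at 7.58 and 7.45 (-0.14), and PRIM1, the primase that lays the RNA primer, at 8.14 and 7.92 (-0.22). The 3 members of the priming complex were thus all lower. POLD1, the catalytic subunit of the lagging-strand polymerase, was at 7.51 and 7.30 (-0.21). For the leading-strand polymerase the differences were smaller, with POLE at 6.62 and 6.58 (-0.04) and its subunit POLE2 at 8.15 and 8.03 (-0.12).

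The sliding clamp and its loader had a median of -0.04 over 5 members, the nearest to 0 among the groups that act at the fork. PCNA, the clamp that tethers polymerases to DNA, was at 10.75 with DMSO and 10.73 with fluphenazine (-0.03). Of the loader subunits, RFC2 was at 8.61 and 8.38 (-0.23), RFC3 at 8.57 and 8.46 (-0.10) and RFC4 at 10.01 and 9.97 (-0.04). RFC5 was the highest of all 40 members by its brightest probe set, at 8.86 and 9.09 (0.23). Its other 2 probe sets, also above the floor, went the other way, at -0.19 and -0.22. The brightness of the first probe set and of one of the others was close, 8.86 and 8.78 with DMSO, so RFC5 has no settled direction here.

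Both genes that finish lagging-strand fragments were lower. FEN1, the flap nuclease, was at 10.39 with DMSO and 10.26 with fluphenazine (-0.14), with -0.09 at its other probe set. LIG1, the ligase that seals the nicks, was at 7.04 and 6.81 (-0.22).

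The 4 nucleotide supply genes had a median difference of -0.10, and 3 lay under 0. TK1, the S-phase thymidine kinase, was at 9.16 with DMSO and 8.92 with fluphenazine (-0.24), with -0.27 at its other probe set. TYMS, which makes thymidylate, was at 11.82 and 11.67 (-0.15), with -0.16 at the other probe set above the floor. All 4 of these probe sets were lower. Ribonucleotide reductase makes deoxynucleotides from ribonucleotides. Its large subunit RRM1 was at 11.18 and 11.25 (0.07), with -0.06 at its other probe set. Its small subunit RRM2 was at 11.70 and 11.65 (-0.05), while its other probe set, nearly as bright, was at 11.43 and 11.23 (-0.20). RRM2 thus was lower at both, by amounts that differed. RRM2B, another small subunit that is not one of the 43 genes, was at 7.94 with DMSO and 8.38 with fluphenazine. That difference of 0.45, or 1.36-fold higher, was read by 1 probe set.

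Genes that control entry into S phase had no common direction, with 2 of 4 lower and a median of -0.02. E2F1, an activating E2F factor, was at 7.2682 with DMSO and 7.0001 with fluphenazine (-0.27), while its dimmer probe set under the floor gave -0.04. The cyclin CCNE1, which activates CDK2, was at 7.50 and 7.59 (0.09), and its dim probe set gave 0.09 as well. CDC25A, the phosphatase that activates CDK2, was just above the floor at 6.28 and 6.24 (-0.04). Cyclin CCNE2 was level by its bright probe set, at 8.68 and 8.69 (0.01). A dimmer probe set of CCNE2 crossed the floor, from 6.23 to 5.61 (-0.62), the largest difference of any member probe set above the floor. CCNE2 thus differed by probe set.

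Of the S-phase chromatin and turnover genes, all 4 above the floor were lower by small amounts, with a median of -0.10. DTL, the adaptor that sends CDT1 for degradation at PCNA, was at 8.68 with DMSO and 8.49 with fluphenazine (-0.19), with -0.23 at its other probe set. SLBP, which binds histone mRNA, was at 8.53 and 8.42 (-0.11). UHRF1, which carries DNA methylation through replication, was at 10.31 and 10.21 (-0.10). The chromatin assembly subunit CHAF1A was at 7.64 and 7.59 (-0.05), and another probe set crossed the floor, from 6.26 to 5.98 (-0.28). Its partner CHAF1B lay under the floor, at 5.88 and 5.98 (0.10).

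**Figure D2:**
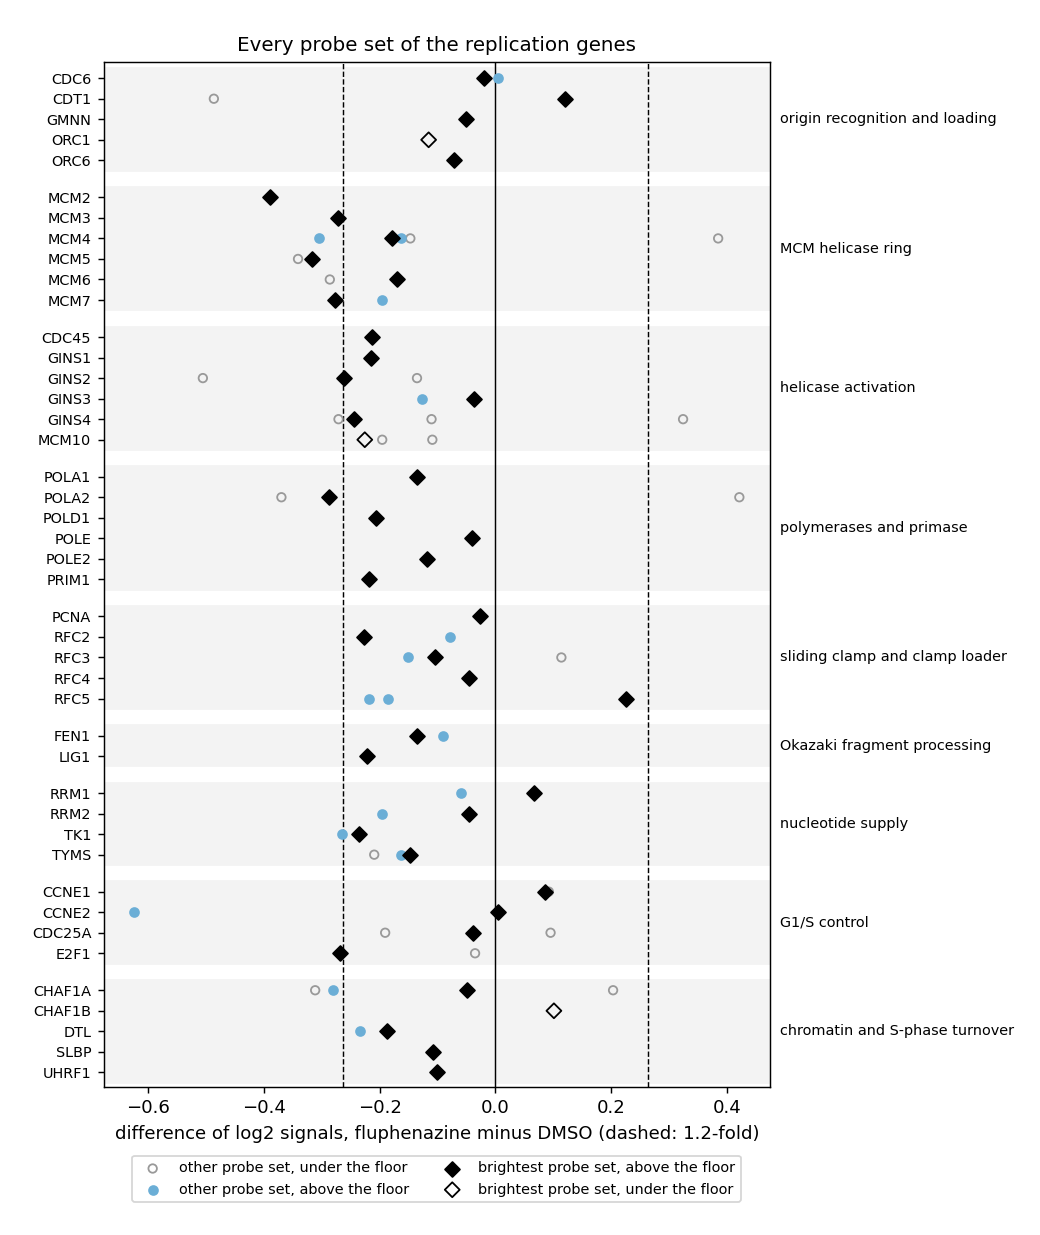
Difference of log2 signals, fluphenazine minus DMSO, for all 82 probe sets of the 43 genes by role, with filled marks above the floor, open marks under it, and diamonds for the brightest probe set of a gene. Most marks lie left of 0, and several genes have marks on both sides, RFC5, CDT1, MCM4, POLA2 and GINS4 among them. For CCNE2, 1 probe set, above the floor with DMSO only, lies at -0.62.

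Read one by one, the members' probe sets had small, mostly negative differences. The 43 genes had 82 probe sets, 57 of them above the floor, and 51 of the 57 were lower, beside 52.7% of all probe sets above it. Their median was -0.16, beside -0.01 for all probe sets. At least 1.2-fold lower were 10 of the 57, beside 5.38% of all, and none was 1.2-fold higher, beside 4.96%. Of these 10, 2 reached the floor with DMSO only, 1 of CCNE2 and 1 of CHAF1A, and so had to be lower. Among the 55 above the floor on both arrays 49 were lower, beside 52.6% of all such probe sets, 8 were at least 1.2-fold lower, beside 4.61%, and none was 1.2-fold higher, beside 4.37%. Their median was -0.15. Of the 15 genes with more than 1 probe set above the floor, 11 were lower at each of them, CHAF1A among them with the probe set just given. The same share over all genes was not computed, so this count has no background beside it. The other 4, CCNE2, CDC6, RFC5 and RRM1, had probe sets on both sides of 0. For CDC6 that split spanned only 0.02, and for RFC5 it spanned 0.44.

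**Figure D3:**
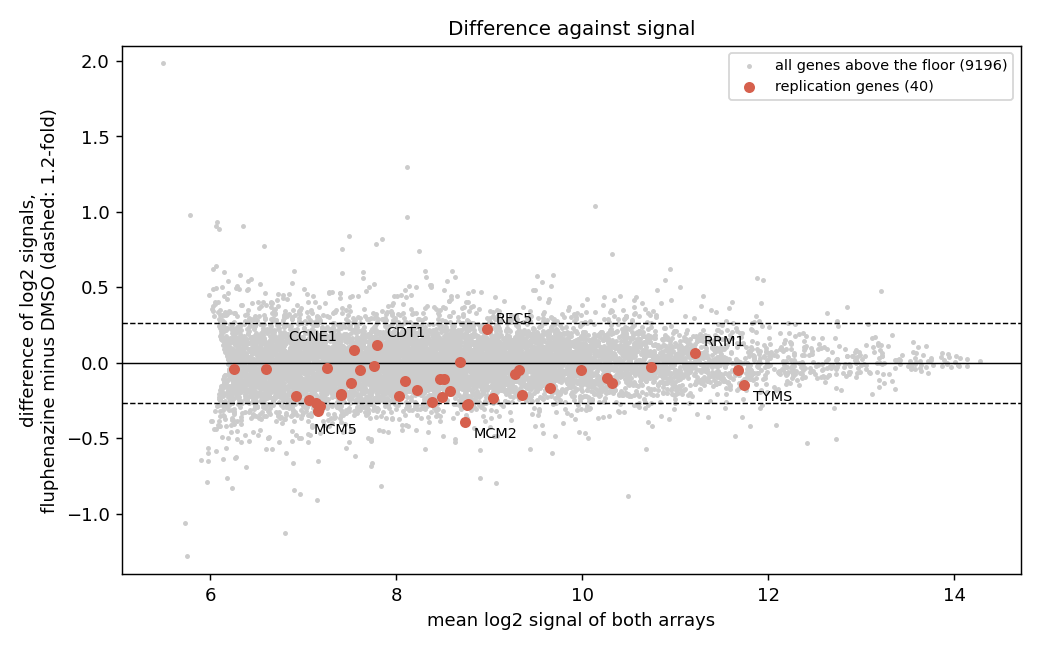
Difference of log2 signals, fluphenazine minus DMSO, against the mean log2 signal of both arrays, for 9196 genes above the floor (grey) and the 40 replication genes (red), with dashed lines at 1.2-fold. The replication genes lie mostly between 0 and the lower dashed line, with MCM2 lowest at -0.39.

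Other genes of replication, listed by name, had a median of the same sign and smaller size. Of 73 above the floor in 4 lists, 57 were lower (78.1%), beside 51.8% of all genes, with a median of -0.08. By list, 9 of 13 other origin and firing genes were lower, 18 of 21 other fork genes, 16 of 21 other nucleotide supply genes, and 14 of 18 other E2F and S-phase genes. The lowest 3 were SAMHD1, which breaks down deoxynucleotides, at 10.40 with DMSO and 10.04 with fluphenazine (-0.36), SLF1, a repair factor, at 6.64 and 6.29 (-0.35), and RNASEH2A, which removes RNA from DNA, at 9.97 and 9.66 (-0.30). The highest were RRM2B, given above, MCM9, a helicase of recombination repair, at 6.19 and 6.45 (0.26), and SHMT2, a mitochondrial one-carbon enzyme, at 10.39 and 10.61 (0.23). MCM9 lay close to the floor with DMSO, and its other probe sets, under the floor, gave -0.30 and -0.06. In these lists 4 of the 73 genes were at least 1.2-fold lower (5.48%), near the background of 4.69%. At least 1.2-fold higher was 1 of the 73, beside 4.84% of all genes.

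Genes of G2 and mitosis, which act after replication, lay close to the replication genes. Of 29 above the floor, 24 were lower (82.8%), with a median of -0.12, and 5 were at least 1.2-fold lower, beside 4.69% of all genes. The replication genes had 87.5% lower and a median of -0.14. The difference between both lists was not tested, and nothing here is called particular to replication as against the rest of the cell cycle.

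**Figure D4:**
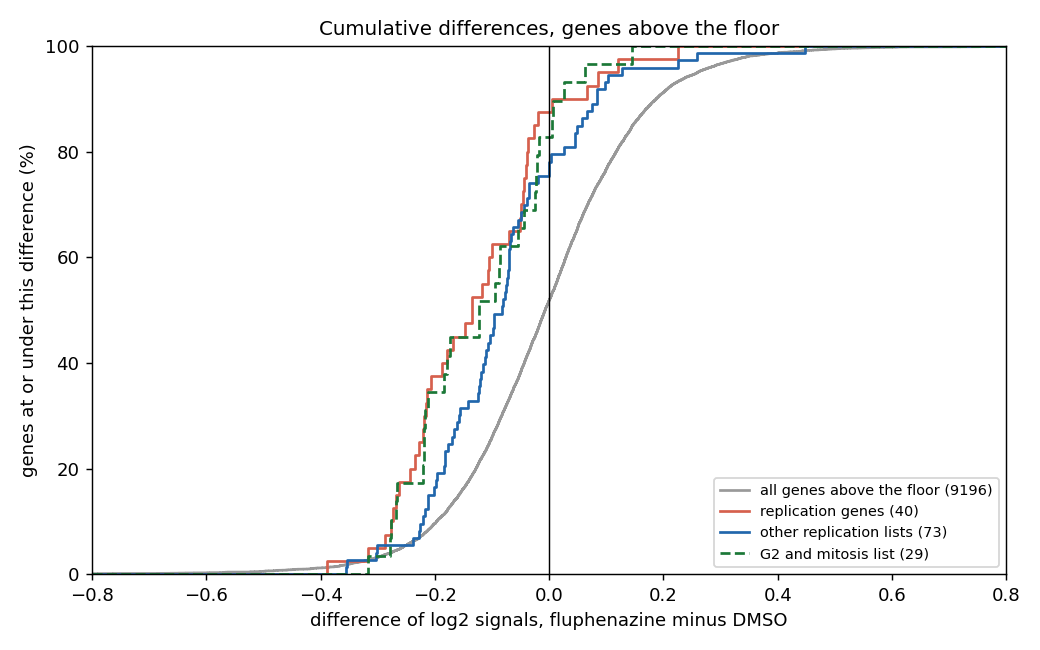
Cumulative share of genes at or under each difference of log2 signals, fluphenazine minus DMSO, for all 9196 genes above the floor, 40 replication genes, 73 genes of the other replication lists and 29 genes of G2 and mitosis. At 0 the 3 cell-cycle curves lie above the curve of all genes, with 87.5%, 78.1% and 82.8% of their genes lower, beside 51.8%, while in the lower tail 1.26% of all genes lie below MCM2, the lowest replication gene.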

How the data were processed

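Gene expression was measured on 2 Affymetrix arrays of PC3 cells, 1 for DMSO and 1 for 10 µM fluphenazine. The authors deposited 1 log2 signal per probe set and array, with the log2 scale judged from a range of 1.60 to 14.28. The submitters' processing notes name RMA, a method that summarizes the probes of a probe set on the log2 scale, together with Transcriptome Analysis Console 3.1 and Affymetrix Expression Console 1.4, without saying what each did. Per the labels' protocols, RNA was labelled with a whole-transcript kit. After sorting, both deposited columns differed by at most 0.13, so the values show how a gene moved relative to the other genes of the array and not a change in total RNA. No genome build is named in the labels.

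Of 47693 probe sets, the platform annotation of 2016 gave 37151 exactly 1 gene and 1668 several. Probe sets with 1 gene gave 18392 genes, after leaving out 59 control probe sets. A gene's value was its probe set with the highest mean of both arrays. The floor was the median over genes of the higher of the 2 values, 6.19, which left 9196 genes. The floor ranks genes and does not call detection. The number of arrays limits the precision, and with 1 array per treatment no test was made. Every member was named, and of the other replication lists the 3 genes with the largest difference on each side. The members, the gene lists and the 1.2-fold threshold were chosen with earlier results of these data known. Alternatives were 3 other scalings (median centring, quantile normalization, and a loess fit with a span of 0.3), averaging a gene's probe sets, every probe set on its own, probe sets without possible cross-hybridization marks, 2 other floors, thresholds of 1.1-fold and 1.5-fold, the mean of the list, and leaving out its most extreme member. The gene table was tested on simulated data with known shifts. Python 3.11.15 with numpy 2.4.6, pandas 2.3.3, statsmodels 0.14.6 and matplotlib 3.10.9 was used. Promoter sequences came from RefSeq on GRCh38.p14.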

Additional observations from a re-analysis of the deposited data

How the results depend on the processing

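The members' median stayed under 0 in every alternative run, and lay between -0.16 and -0.12 over all of them. The other results recomputed here are counts, which cannot change sign, so only their sizes are compared. At least 1.2-fold lower were 6 of 40 members as reported, beside 4.69% of all genes. With each array centred on its median this was 4, beside 4.23%. It was 5 after quantile normalization, beside 4.27%, 5 after loess, beside 4.24%, and 5 with averaged probe sets, beside 5.02%. With every probe set on its own it was 10 of 57, beside 5.38%, and 8 of 55 where both arrays reached the floor, beside 4.61%, an alternative chosen after seeing the data. It was 3 of 22 with the floor at the 75th percentile, beside 2.89%, 6 of 43 with no floor, beside 8.33%, and 4 of 29 without probe sets marked for possible cross-hybridization, beside 5.87%. A threshold of 1.1-fold gave 19 members, beside 18.2% of all genes, and one of 1.5-fold gave 0, beside 0.294%. At the 75th percentile floor, where fewer genes were left, 19 of 22 members and 36 of 44 other replication genes were lower. Of all genes above that floor 48.6% were lower. CCNE2, CDC6, CDT1 and RFC5 changed sign under at least 1 alternative. With averaged probe sets CCNE2 was at -0.31, CDT1 at -0.18 and RFC5 at -0.06. Without the marked probe sets 24 of 29 members were lower, beside 49.5% of all genes. No paired analysis was possible because each treatment had 1 array. Depth cannot be read from these values, and background signal per probe was not used here.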

Other observations

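The deoxynucleotide hydrolase gene SAMHD1 had 4 probe sets above the floor on both arrays, and each of them was lower with fluphenazine, from -0.48 to -0.28. SHMT2 was higher at each of its 3 probe sets, from 0.10 to 0.23. These genes were named by rule for their differences, so the values are a description.

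Some probe sets of the replication genes under the floor had large differences. They reached 0.42 for POLA2, 0.38 for MCM4 and 0.32 for GINS4, and -0.51 for GINS2 and -0.49 for CDT1. For POLA2, MCM4, GINS4 and CDT1 the brightest probe set had the opposite sign. The CHR element, searched as TTTGAA on both strands, was found upstream of 1 of 39 members, RRM1, and of 16.1% of all genes. Counted by window, it was found in 13.3% of all windows. Among windows at least as rich in CG pairs as the members' median it was found in 2.91%.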
